A study of Homo sapiens with 10 samples.

Results

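The heat shock chaperones analysed here are 10 genes that HSF1, the main transcription factor of the heat shock response, is known to regulate. They were chosen by name, but with earlier results of these data known. They are 10 of the 31015 genes to which the deposited 3′ UTR intervals were assigned: HSPA1A, HSPA1B, HSPA8, HSPH1, DNAJB1, HSP90AA1, HSPB1, HSPE1, HSPD1 and BAG3. They were measured by SLAM-seq, in which newly made RNA takes up 4-thiouridine (4sU) and its reads then show T-to-C (T>C) conversions, in 22RV1 cells, an established cell line of castration-resistant prostate cancer. All 10 libraries came from this 1 cell line and from cells given 4sU for the last 10 min, and they formed 5 groups of 2 replicates. One group was left untreated (control). The other 4 were exposed for 4 h to SRPIN340 (20 μM), an inhibitor of the splicing kinase SRPK1; to Endovion (SCO-101, 50 μM), which the study tested as another SRPK1 inhibitor; to THZ531, an inhibitor of the elongation kinases CDK12 and CDK13, at 100 nM according to the methods and 150 nM according to the text of the series (both are given because the sources differ); or to THZ531 and Endovion together. T>C reads are called nascent RNA and all reads total RNA. No library without 4sU was among the 10, so the T>C reads that arise without the label were not measured.

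Molecular chaperones bind unfolded proteins and help them to reach or regain their fold. In unstressed cells HSF1 is held inactive by chaperones, and when misfolded proteins occupy these, HSF1 is released and drives transcription of the chaperone genes through heat shock elements in their promoters. Many cancer cells, including prostate cancer cells, rely on these chaperones, and HSP90 keeps many of its client proteins, among them kinases and steroid hormone receptors, in a form that can be activated.

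The heat shock element consists of alternating units of GAA and TTC, each 2 bases from the next. To show where the chaperone promoters carry it, windows from 250 bases before to 50 bases after each annotated start site (RefSeq, GRCh38.p14) were searched for the core of 8 bases, GAANNTTC or TTCNNGAA, and for 3 alternating units in a row, GAANNTTCNNGAA or TTCNNGAANNTTC, each motif set being its own reverse complement so that both strands were covered. The longer motif contains overlapping cores. All 10 members had an entry, with 14 windows in all. The core was in 8 of the 14 windows (57.1%) and in 13.5% of all 35116 windows, and 3 units were in 3 of the 14 (21.4%) and in 0.49% of all. Stretches that lie before the start site are printed below 5′ to 3′ on the gene's strand, with the units in capitals, as examples of the element in members with and without a usable measurement.
HSPA1A, chr6:31815427-31815454, plus strand: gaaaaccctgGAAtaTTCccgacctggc
HSPA8, chr11:123062346-123062374, minus strand: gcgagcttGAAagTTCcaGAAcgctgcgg
HSPA8, chr11:123062171-123062199, minus strand: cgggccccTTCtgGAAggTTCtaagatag
DNAJB1, chr19:14518427-14518454, minus strand: gcgggctctgGAAgcTTCcgccggacgg
HSP90AA1, chr14:102087112-102087140, minus strand: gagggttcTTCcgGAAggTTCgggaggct
HSPB1, chr7:76302481-76302508, plus strand: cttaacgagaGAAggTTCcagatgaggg
HSPD1, second annotated start, chr2:197500062-197500090, minus strand: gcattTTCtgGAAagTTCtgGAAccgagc
The HSPA8 window had 3 units at both places shown, and HSP90AA1 had them at the more downstream of its 2 annotated starts. The windows of BAG3, HSPH1 and HSPE1 held no core, and sequence beyond the windows was not searched. The element printed for HSPD1, at chr2:197500062-197500090, lies just upstream of the HSPE1 window, which starts at chr2:197500129. HSPE1 and HSPD1 are divergent neighbours whose first windows share 204 bases.

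The libraries held between 19315560 and 30047897 reads on genes, of which 1011598 to 1576121 carried a T>C conversion (5.04% to 5.70% of reads). Reads of all 7 prostate epithelial markers used here, which include KLK2 and KLK3, were found in the libraries. Levels are counts per 1000000 reads on the genes tested, scaled with TMM factors (CPM). The summed level of these markers was 715 to 811 CPM in control. It was 650 to 726 in the 4 libraries with SRPIN340 or Endovion alone and 698 to 829 in the 4 with THZ531. KRT18 alone gave 389 and 472 CPM in control, and the single markers did not all stay level. With THZ531 alone, total KLK2, KLK3 and HOXB13 fell (log2 change −0.68, −0.98 and −0.94) and KRT8 rose (0.50). These 4 had an adjusted p under 0.05 in edgeR, as did 30.7% of all genes. Of 10 markers of leukocytes, endothelium, fibroblasts and neuroendocrine cells, 8 stayed under 1 CPM, 2 of these with no read at all, while COL1A1 (1.57 to 3.51 CPM) and SYP (20.8 to 25.6 CPM) were above. The labels do not say whether replicates were separate cultures, so the p-values measure the spread between these samples, which may be technical. In bulk samples, fewer cells of a kind and less RNA per cell cannot be told apart.

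The stress-inducible HSP70 genes HSPA1A and HSPA1B, the usual first readout of HSF1 activity, could not be measured. Over the 10 libraries, HSPA1A had 1 read and HSPA1B had 3 reads, 1 of them with a conversion. A count of 0 in a library allows up to 3 reads, so these counts set no level. Their intervals lie in the 3′ UTRs at chr6:31817683-31817946 and chr6:31829877-31830255 (hg38, plus strand). Of the 67 protein-coding genes within 500000 bases of them, 57 (85.1%) had no reads in any library, against 3210 of 19181 (16.7%) elsewhere, and the HSPA1A interval has exact copies on 4 alternative contigs of the build and the HSPA1B interval on 1. The deposited intervals on those contigs held 6 reads and 1 read. The part of these copies in the missing reads was not tested. Of the 10 members, 8 passed the filter on low counts and were tested.

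None of the 8 tested members passed the test in nascent RNA under any treatment. At an adjusted p under 0.05, edgeR called 0 of 8 members with SRPIN340, where 1.04% of the 9946 genes tested were called, 0 of 8 with Endovion (2.66% of all), 0 of 8 with THZ531 (7.46%) and 0 of 8 with THZ531 and Endovion (8.1%). DESeq2 also called 0 in each. At an unadjusted p under 0.05, 1 of 8 members passed in each comparison, against 10.4%, 14.1%, 21.2% and 21.4% of all genes. By the threshold in the study's methods, an unadjusted p under 0.05 with a log2 change of 1 or more in size, HSPA8 passed with SRPIN340 (4.66% of all genes passed) and with Endovion (6.49%), BAG3 passed with THZ531 (12%), and no member passed with the combination (11.3%). The median log2 change over the 8 members was 0.06, 0.07, 0.18 and 0.13 in these 4 comparisons, and over all genes tested −0.01, −0.01, −0.02 and −0.01. Both treated libraries lay above both controls for 1, 1, 3 and 3 of the 8 members, and for 20.9%, 22.0%, 24.0% and 24.0% of all genes. Both lay below both controls for 1, 2, 0 and 0 members and for 20.5%, 21.6%, 24.6% and 24.8% of all genes. All 4 comparisons use the same 2 control libraries, so that a deviation in a control library enters each of them.

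Differences between the treatments were also tested on nascent RNA. No member was called between Endovion and SRPIN340 (0.0603% of all genes), between the combination and THZ531 (0.322%), between the combination and Endovion (1.31%) or in the interaction of THZ531 and Endovion (0.302%). For HSPA8 the log2 difference of Endovion from SRPIN340 was 0.02, with a 95% interval from −0.92 to 0.95, and for HSP90AA1 it was 0.03 with an SE of 0.16. In total RNA no member was called in these comparisons either (0.034%, 0.511%, 8.22% and 0.00681% of all genes in the same order). SRPIN340 and Endovion were given at different doses.

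In total RNA, 2 members rose with THZ531 and 3 with THZ531 and Endovion. With THZ531, BAG3 and HSPH1 were called higher, 2 of 8 members, where 30.7% of the 14690 genes tested were called in either direction and 16.6% higher. With the combination, BAG3, HSPH1 and HSPA8 were called higher, 3 of 8, where 29% of all genes were called and 16.6% higher. With Endovion 0 of 8 were called (11.4% of all), where DESeq2 called 3 and 4 passed at an unadjusted p under 0.05 (27.5% of all). DESeq2 called BAG3 and HSPA8 higher and HSPB1 lower. With SRPIN340 0 of 8 were called (1.96% of all), where DESeq2 also called 0 and 4 passed unadjusted (19.3% of all). In both comparisons those passing unadjusted were BAG3 and HSPA8, which were higher, and DNAJB1 and HSPB1, which were lower. By the threshold of the methods BAG3 and HSPA8 passed in each of the 4 comparisons, against 4.22%, 6.88%, 14.8% and 13.8% of all genes. Whether the members' counts differ from the share of all genes was not tested. In total RNA both treated libraries lay above both controls for 4, 3, 4 and 5 of the 8 with SRPIN340, Endovion, THZ531 and the combination, and for 30.7%, 31.9%, 33.0% and 33.1% of all genes. They lay below both controls for 2, 2, 0 and 0 members, and for 22.7%, 25.6%, 32.3% and 31.5% of all genes. Their median log2 change in total RNA was 0.17 with SRPIN340, 0.12 with Endovion, 0.18 with THZ531 and 0.28 with the combination, beside 0.03, 0.02, −0.01 and −0.0019 over all genes.

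**Figure D1:**
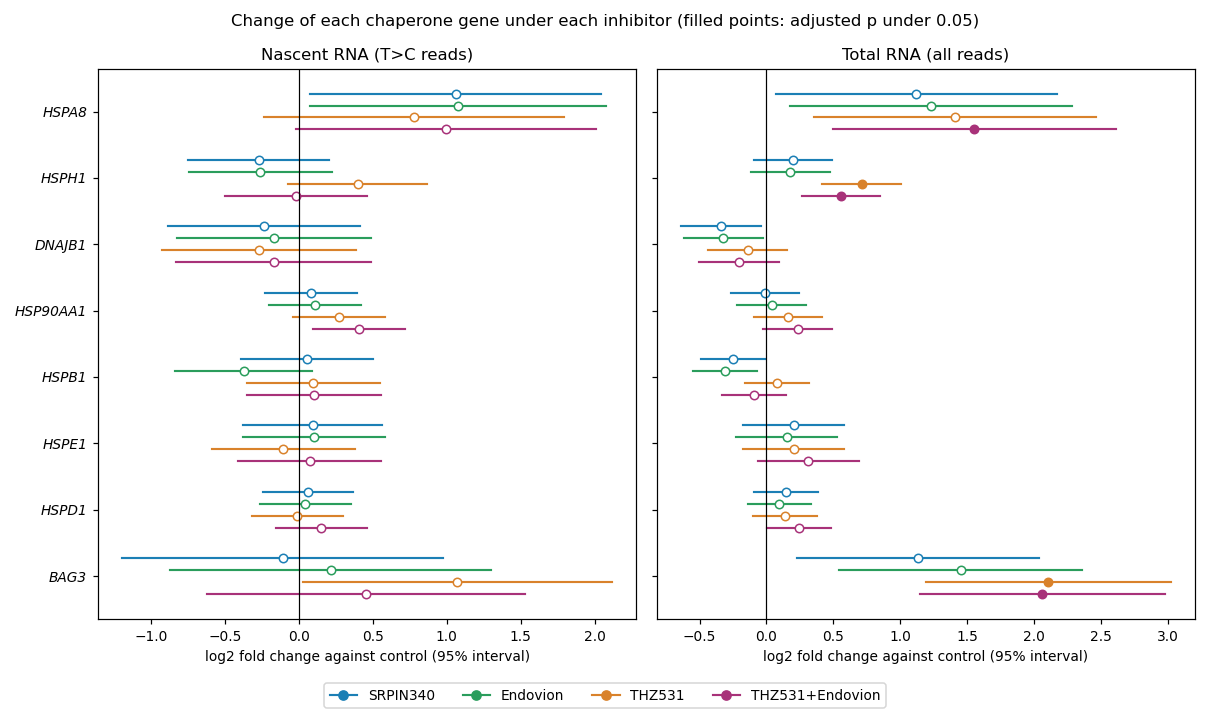
Log2 fold change of nascent RNA (left) and total RNA (right) against control for the 8 tested chaperone genes under each treatment, with 95% intervals from the edgeR fit over 10 libraries. No point is filled (adjusted p under 0.05) for nascent RNA, and in total RNA the filled points are BAG3 and HSPH1 with THZ531 and BAG3, HSPH1 and HSPA8 with THZ531 and Endovion.

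BAG3 is the co-chaperone that links HSP70 to selective autophagy of misfolded proteins. Its single interval is at chr10:119677283-119677819 (hg38, plus strand, 3′ UTR) and holds 174 T positions. Scaled with TMM factors, as all levels here, total BAG3 RNA in CPM was 14.1 and 8.62 in the control libraries, 21.0 and 28.9 with SRPIN340, 37.1 and 25.1 with Endovion, 34.1 and 64.3 with THZ531, and 51.4 and 43.7 with the combination. All 8 treated libraries lay above both control libraries. BAG3 rose 4.31-fold with THZ531 (log2 change 2.11 ± 0.39 SE, adjusted p = 0.0066) and 4.17-fold with the combination (2.06 ± 0.39, adjusted p = 0.0076). With Endovion the log2 difference was 1.45 (adjusted p = 0.0555), and with SRPIN340 it was 1.13 (adjusted p = 0.178). Both calls were lost without control replicate 2, the lower control library, where the adjusted p was 0.0595 with THZ531 and 0.0702 with the combination, and without replicate 1 of the combination it was 0.0654 for the combination.

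The nascent reads of BAG3 were few. The control libraries had 17 and 23 T>C reads, SRPIN340 had 28 and 13, Endovion 25 and 15, THZ531 25 and 46, and the combination 25 and 19. THZ531 replicate 2 stood highest. The groups overlapped with the control except for the combination on the scaled values (21.2 and 18.7 T>C CPM against 10.9 and 18.5 in control). T>C CPM are counts per 1000000 T>C reads on the genes tested. The nascent log2 change with THZ531 was 1.07 ± 0.52 SE (95% interval 0.03 to 2.12, adjusted p = 0.221), and it rested on THZ531 replicate 2, without which it was 0.16, while without THZ531 replicate 1 it was 1.68.

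A conversion was carried by 11.2% of BAG3 reads in control replicate 2 (95% Wilson interval 7.59% to 16.3%) and by 4.30% in control replicate 1 (2.70% to 6.78%). In the treated libraries the share was between 1.43% and 4.99%, so 1 control library overlapped with them and the other did not. In control replicate 2 the T>C reads of BAG3 carried on average 2.65 conversions each, while the other 9 libraries had 1.0 to 1.2. The log2 odds of a conversion differed by −1.75 between the combination and control (adjusted p = 0.124), by −1.42 with Endovion, −1.35 with SRPIN340 and −1.16 with THZ531, and none was called. Refits of the share without 1 library were used only to count calls. The part of this 1 control library in the BAG3 differences was therefore not assessed.

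HSPH1 encodes HSP110, which exchanges the nucleotide of HSP70 and so releases its client. Its interval is at chr13:31134974-31137317 (hg38, minus strand, 3′ UTR). Total HSPH1 RNA was 57.8 and 60.2 CPM in control, 61.0 and 74.1 with SRPIN340, 65.4 and 68.2 with Endovion, 85.3 and 107.9 with THZ531, and 82.4 and 90.9 with the combination. All 8 treated libraries were above both control libraries, and the 4 with THZ531 were above the others. HSPH1 rose 1.64-fold with THZ531 (log2 change 0.71 ± 0.14 SE, adjusted p = 0.00142), and this call remained without any 1 of the 10 libraries (adjusted p 0.000665 to 0.0446). It rose 1.47-fold with the combination (0.55 ± 0.14, adjusted p = 0.0073), where the adjusted p was 0.0573 without replicate 2 of the combination.

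Nascent HSPH1 RNA was 104.9 and 101.1 T>C CPM in control, 79.1 and 91.4 with SRPIN340, 99.7 and 71.2 with Endovion, 121.7 and 151.5 with THZ531, and 94.0 and 109.2 with the combination. The libraries with THZ531 alone lay above control and those with either SRPK1 inhibitor alone lay below it, but no log2 change passed the test (0.40 with THZ531, adjusted p = 0.338; −0.27 with SRPIN340; −0.26 with Endovion; −0.02 with the combination). HSPH1 had the highest share of converted reads among the members in the pooled control libraries, 9.47%, where the median over all genes tested was 5.19% (quartiles 3.55% and 8.21%). That share was 10.05% and 8.81% in the control libraries and between 5.36% and 8.08% in the 8 treated ones, all of which lay below both controls. Conversions per 100 covered T positions of HSPH1 did not all lie below control. They were 0.330 and 0.298 in control, 0.306 and 0.334 with THZ531, and 0.184 to 0.263 in the other treated libraries. The share over all reads on genes was also lower in each of the 8 treated libraries (5.04% to 5.63%) than in the controls (5.70% and 5.63%), by the least in THZ531 replicate 1, which equals control replicate 2 to the digits given. For HSPH1 the log2 odds differed by −0.67 with the combination (adjusted p = 0.24), −0.59 with Endovion (0.372), −0.54 with SRPIN340 (0.598) and −0.31 with THZ531 (0.742), where the median over all genes tested was −0.16, −0.19, −0.11 and −0.09 in the same order.

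HSPA8 is the constitutive HSP70 of the cytosol. Its interval is at chr11:123057489-123057733 (hg38, minus strand, 3′ UTR), and 96.7% of its reads reached the first 33 bases of it, those next to the stop codon. Inside the interval the reads covered 15.4 T positions each, against 23.2 over all genes. T positions of a read outside the interval are not in this count. The annotation names 17 pseudogenes after HSPA8, and no deposited interval held reads counted as multimapped. Whether the counted reads are all those of the gene was not tested. The levels below are those of the counted reads. Total HSPA8 RNA was 28.5 and 10.9 CPM in control, 41.7 and 44.3 with SRPIN340, 52.8 and 40.0 with Endovion, 48.7 and 56.6 with THZ531, and 68.0 and 48.2 with the combination. All treated libraries were above both controls, but the 2 control libraries differed by 1.37 on the log2 scale, a gap that 4.74% of all genes reached. The log2 change was 1.55 ± 0.44 SE with the combination (2.94-fold, adjusted p = 0.0417), 1.41 with THZ531 (adjusted p = 0.0538), 1.23 with Endovion (0.131) and 1.12 with SRPIN340 (0.235). DESeq2 called HSPA8 higher with THZ531 (adjusted p = 0.0090) and with Endovion (0.0479) too. Of the 10 fits that left out 1 library, 8 lost the call with the combination (adjusted p 0.0677 to 0.197). Either control library moved each of these values. Without control replicate 1 the change was 2.41 with the combination, 2.27 with THZ531, 2.09 with Endovion and 1.98 with SRPIN340, all of them called. Without control replicate 2 it was 0.98, 0.85, 0.66 and 0.56, called for the combination and for THZ531 (adjusted p = 0.0162).

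In nascent RNA HSPA8 had the largest differences with the 2 SRPK1 inhibitors. It had 23 and 9 T>C reads in control, 37 and 35 with SRPIN340, 34 and 22 with Endovion, 31 and 18 with THZ531, and 24 and 25 with the combination. After scaling, all 8 treated libraries (18.3 to 26.1 T>C CPM) lay above both controls (14.8 and 7.22). The log2 change was 1.06 ± 0.49 SE with SRPIN340 (adjusted p = 0.427), 1.08 ± 0.50 with Endovion (0.308), 0.78 with THZ531 and 0.99 with the combination, and none passed. Without control replicate 2 the nascent changes were 0.66, 0.68, 0.38 and 0.59, and without control replicate 1 they were 1.70, 1.70, 1.42 and 1.63, none of them called.

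**Figure D2:**
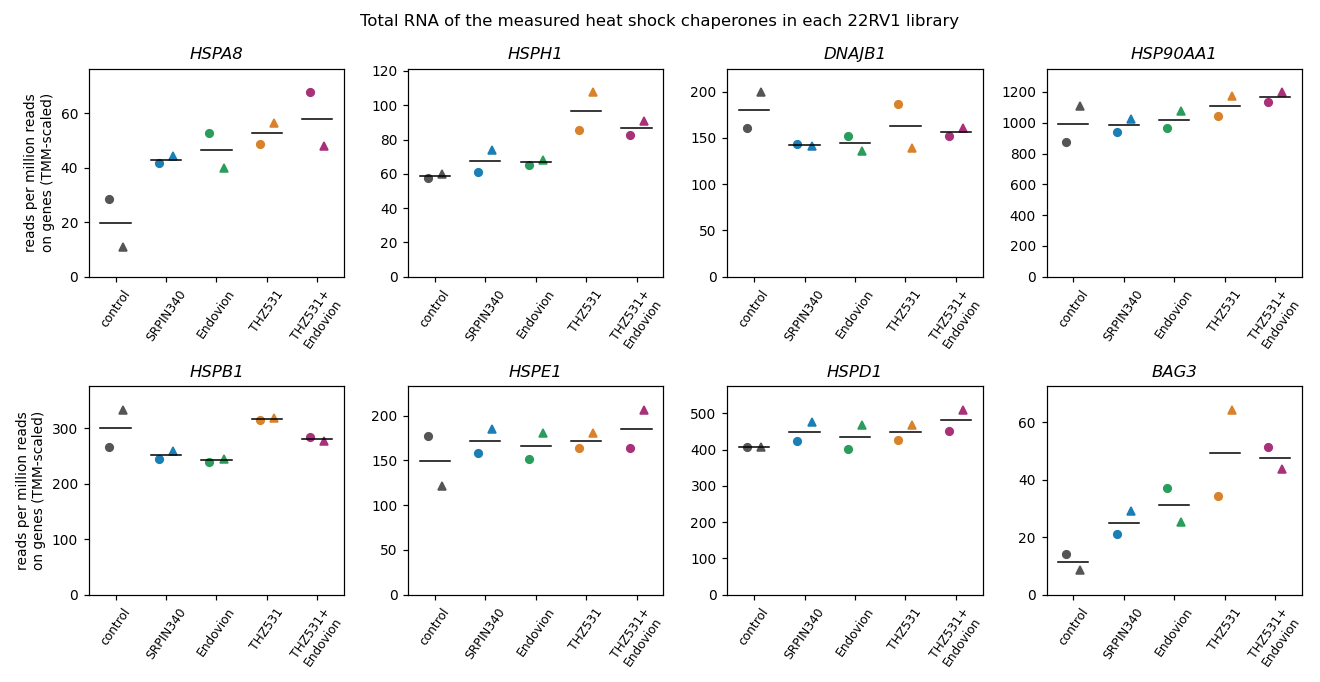
Total RNA of the 8 tested chaperone genes in each library, in CPM, scaled by TMM (circles replicate 1, triangles replicate 2, lines group means). For BAG3, HSPH1 and HSPA8 all 8 treated libraries lie above both control libraries, while control replicates 1 and 2 of HSPA8 stand at 28.5 and 10.9.

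DNAJB1, the HSP40 that stimulates ATP hydrolysis by HSP70, had 160.4 and 200.03 CPM in control and 136.0 to 187.2 in the treated libraries. Both libraries of SRPIN340 and of Endovion were below both controls. The log2 difference in total RNA was −0.34 with SRPIN340 (adjusted p = 0.201), −0.32 with Endovion (0.15), −0.14 with THZ531 and −0.21 with the combination. Nascent DNAJB1 differed widely between replicates in control (61.8 and 123.6 T>C CPM) and with THZ531 (106.7 and 41.7). It was 76.4 and 79.5 with SRPIN340, 89.0 and 74.1 with Endovion, and 69.5 and 94.4 with the combination.

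HSP90AA1 encodes the inducible cytosolic HSP90, the chaperone of steroid receptors and kinases. Nascent HSP90AA1 RNA was 446.1 and 607.4 T>C CPM in control, 493.8 and 617.2 with SRPIN340, 541.7 and 592.6 with Endovion, 615.1 and 654.8 with THZ531, and 687.2 and 709.1 with the combination. Both libraries with THZ531 and both with the combination were above both controls. The log2 change with the combination was 0.41 ± 0.16 SE (95% interval 0.10 to 0.72, adjusted p = 0.095), the smallest adjusted p of any member in nascent RNA, and it was 0.65 (adjusted p = 0.0269) without control replicate 2. In total RNA the change with the combination was 0.23 (adjusted p = 0.163), and with SRPIN340, Endovion and THZ531 it was −0.01, 0.04 and 0.16.

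HSPB1, the small heat shock protein HSP27, had 266.0 and 333.3 CPM of total RNA in control, 244.7 and 259.2 with SRPIN340, and 239.5 and 244.3 with Endovion. These 4 treated libraries were below both controls. The log2 difference was −0.31 with Endovion (adjusted p = 0.0864) and −0.25 with SRPIN340 (0.239), and it was 0.08 with THZ531 and −0.10 with the combination. In nascent RNA the difference with Endovion was −0.37 (95% interval −0.84 to 0.09).

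HSPD1 and HSPE1 encode HSP60 and HSP10, the barrel and the lid of the mitochondrial chaperonin, and lie head to head on chromosome 2. Total HSPD1 RNA varied little between the controls. It was 406.7 to 407.3 CPM there and 403.0 to 510.3 in the treated libraries, and the nascent log2 changes of HSPD1 were 0.06, 0.04, −0.01 and 0.15 with SEs of 0.15. Its nascent level differed more between the controls, with 557.4 and 735.0 T>C CPM in replicates 1 and 2. Its share of converted reads was 7.58% and 9.48% there. The nascent 95% interval of HSPD1 with THZ531, −0.32 to 0.30, leaves out a change of 1 in either direction, as did that of HSP90AA1, −0.04 to 0.58. These intervals hold for T>C reads as counted, and the part of unlabelled RNA in them was not measured. HSPE1 varied more, with 177.3 and 121.4 CPM in control, and its log2 changes in total RNA were 0.15 to 0.31 (none called). The ratio of HSPE1 to HSPD1 reads was 0.299 in control replicate 2 and 0.363 to 0.435 in the other 9 libraries. The annotation names 26 pseudogenes after HSPE1, 18 after HSPD1 and 17 after HSPA8, and how their reads were assigned was not tested.

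**Figure D3:**
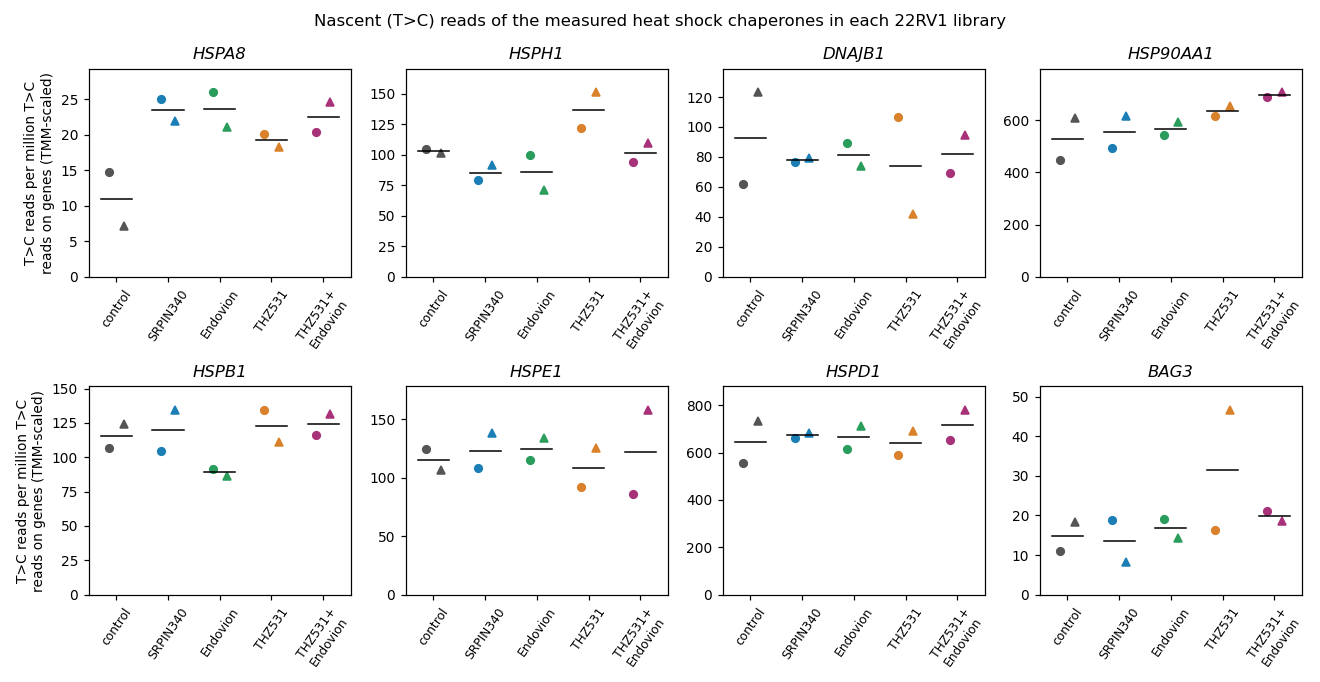
Nascent RNA of the 8 tested chaperone genes in each library, in T>C CPM, scaled by TMM (circles replicate 1, triangles replicate 2, lines group means). HSP90AA1 stands at 687.2 and 709.1 with THZ531 and Endovion against 446.1 and 607.4 in control, and DNAJB1 and BAG3 differ most between replicates.

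The share of converted reads differed between the members. In the pooled control libraries it was 9.47% for HSPH1, 8.45% for HSPD1 and 6.67% for BAG3, above the all-gene median of 5.19%, and 4.15% for HSPE1, 3.02% for HSPA8, 2.85% for HSP90AA1, 2.70% for DNAJB1 and 2.09% for HSPB1, below it. The share also moves with the T positions a read covers, and it was not corrected for them. Inside the interval these ranged from 15.4 per read for HSPA8 to 30.1 for HSPH1. Those outside it are not counted, and the T>C reads of HSPA8 held 0.72 counted conversions each. The test on the share called 0 of 8 members with SRPIN340 (0.0603% of all genes called), Endovion (0.271%), THZ531 (0.0905%) and the combination (0.804%). At an unadjusted p under 0.05, 2, 2, 1 and 2 members passed, against 8.03%, 11.2%, 9.85% and 12.7% of all genes. The members that passed were BAG3 in each comparison and HSPH1 in all but THZ531.

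**Figure D4:**
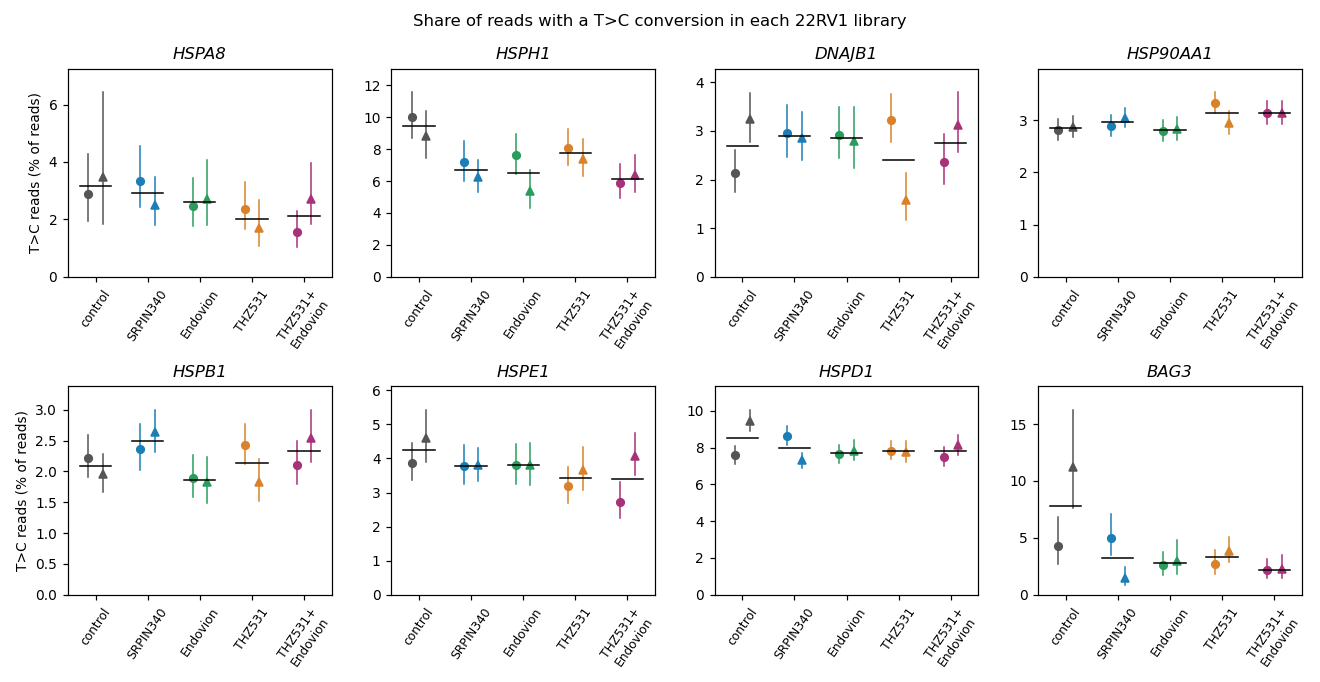
Share of reads with a T>C conversion for the 8 tested chaperone genes in each library, in percent, with 95% Wilson intervals that cover counting error only (circles replicate 1, triangles replicate 2, lines group means). HSPH1 lies between 5.36% and 8.08% in the treated libraries against 10.05% and 8.81% in control, and BAG3 stands at 11.2% in control replicate 2.

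Across the 10 libraries, which share the 5 treatments, the nascent levels of the members were only loosely related. Pearson's r was 0.65 for HSP90AA1 and HSPD1, 0.57 for HSPH1 and BAG3, 0.47 for HSPD1 and HSPE1, and −0.42 for DNAJB1 and BAG3. The genes outside the list whose nascent levels were most like the members' mean were LAPTM4B (r = 0.91), FAM43A (0.90), UBQLN2 (0.90), TMX4 (0.89) and KCTD8 (0.88) over the same 10 libraries.

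The regulators of the response were measured too. HSF1 itself had log2 differences of −0.15 to −0.41 in nascent and −0.16 to −0.21 in total RNA, none of them called. Of 6 tested genes of the HSF family and its regulators, only IER5, whose product helps to activate HSF1, was called in nascent RNA, where it rose with THZ531 (log2 change 0.66 ± 0.20 SE, adjusted p = 0.0304) and with the combination (0.79 ± 0.20, adjusted p = 0.00651). In these comparisons 7.46% and 8.1% of all genes were called. In total RNA 2 of 7 rose with THZ531 and 3 of 7 with the combination, where 16.6% of all genes rose in each. IER5 rose by 0.81 and 0.79, HSF2 rose by 0.34 and 0.42 in the same comparisons, and SIRT1 by 0.61 with the combination.

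Of 9 tested other genes that HSF1 is known to regulate, JUN was called higher in nascent RNA with Endovion (1.29), THZ531 (1.24) and the combination (1.58), and FOS with the combination (4.43 ± 1.23 SE). Of all genes, 2.66%, 7.46% and 8.1% were called there in nascent RNA. In total RNA, where 10 were tested, JUN rose by 1.79, 1.16 and 1.74 in these 3 comparisons, and FOS rose by 2.69 with THZ531 and 3.39 with the combination. The share of all genes called in total RNA was 11.4%, 30.7% and 29%. JUN and FOS are immediate early genes that many stimuli induce besides HSF1.

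Other chaperone groups gave few nascent calls. Of 12 tested other cytosolic chaperones, DNAJC7 fell by 0.61 with SRPIN340 and HSPA14 fell by 1.10 with THZ531 in nascent RNA. Of all genes, 1.04% and 7.46% were called in these comparisons. In total RNA 4 of 16 were called with THZ531 and 4 of 16 with the combination, 2 higher and 2 lower in each, where 30.7% and 29% of all genes were called. In total RNA DNAJC7 rose by 0.59 and 0.39, DNAJA1 rose by 0.45 with THZ531, and DNAJB2 (−0.92 and −1.11) and HSPA12A (−1.47 with the combination) fell.

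None of the 19 HSP90 and co-chaperone genes was called in nascent RNA by edgeR. In total RNA 7 of 19 rose with THZ531, where 16.6% of all genes rose, among them BAG2 (1.20), CACYBP (0.61) and BAG4 (0.66). With the combination, where 29% of all genes were called, 2 of 19 rose, BAG4 (0.65) and CACYBP (0.47), and 1 fell, the ubiquitin ligase STUB1 (−0.39). With Endovion 1 of 19 was called (11.4% of all genes), HSPBP1, which fell by 0.35.

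Of 13 TRiC and prefoldin genes, the TRiC subunit CCT4 rose in nascent RNA with Endovion (0.63 ± 0.18 SE, adjusted p = 0.0387), where 2.66% of all genes were called. In total RNA 1 of 13 was called with SRPIN340 (1.96% of all genes), 3 with Endovion (11.4%), and 2 each with THZ531 (30.7%) and the combination (29%). CCT4 rose in total RNA in all 4 comparisons (0.56 to 0.77), and the prefoldin subunit PFDN2 rose with Endovion (0.61), THZ531 (0.96) and the combination (0.75). Another TRiC subunit, CCT3, went the other way with Endovion and fell by 0.32 (adjusted p = 0.0423).

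Among 11 mitochondrial chaperones and proteases, the nucleotide exchange factor GRPEL2 rose in nascent RNA with the combination (1.08), and the protease LONP1 fell by 0.77. With the combination 8.1% of all genes were called in nascent RNA. In total RNA 1 of 11 was called with SRPIN340, 4 with Endovion, 5 with THZ531 (1 of them lower) and 4 with the combination (1 lower). Of all genes 1.96%, 11.4%, 30.7% and 29% were called in these comparisons. GRPEL2 rose in all 4 comparisons (0.73 to 1.28). CLPX, the unfoldase of a mitochondrial protease, rose with Endovion (0.91), THZ531 (0.79) and the combination (1.04). The mitochondrial HSP70 HSPA9 rose with THZ531 (0.77) and the combination (0.78), and the protease HTRA2 with Endovion (1.01).

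The chaperones of the endoplasmic reticulum gave 2 of 14 nascent calls with THZ531 (7.46% of all genes) and 2 of 14 with the combination (8.1%). HSP90B1, the HSP90 of that compartment, rose by 0.70 ± 0.16 SE (adjusted p = 0.00206) and 0.58 (adjusted p = 0.0134), and the HSP40 DNAJB9 by 1.73 and 1.54. In total RNA 7 of 14 rose with THZ531 and 7 of 14 with the combination, where 16.6% of all genes rose in each, and the median log2 change was 0.39 and 0.33. With Endovion 4 of 14 rose and 1 fell, where 11.4% of all genes were called. DNAJB9 rose in total RNA by 0.94 with Endovion, 1.11 with THZ531 and 1.62 with the combination, and the disulfide isomerase PDIA4 by 0.89, 0.88 and 0.93. PDIA6 rose with THZ531 (0.52), and SDF2L1 fell with Endovion (−0.52) and with the combination (−0.55). The genes of these related groups were not refitted without single libraries, and whether the groups changed differently from the 8 tested members was not tested.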

How the data were processed

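The authors ran SLAM-DUNK on reads of 3′ end libraries. The tables they deposited give 4 unnormalized counts per 3′ UTR interval, namely reads, reads with T>C, T>C conversions and T bases covered. The submitters' processing notes also list Bowtie2 2.3.4.1, SAMtools 1.6 and DESeq2 1.38.2. SLAM-DUNK settings and the use of molecular identifiers are not given in the sources used here, so binomial intervals reflect counting error alone. For 2026 of 2026 intervals checked, the number of T bases equalled that in hg38. Alternative contigs were left out, transcripts were matched to GENCODE v44, and the interval with most reads was kept among overlapping ones of a gene (57437 kept), since 48.8% of T>C reads in a plain sum were counted again.

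T>C reads and all reads were tested with edgeR 4.0.16 (TMM, filterByExpr, robust quasi-likelihood, group means over 10 libraries, 5 residual degrees of freedom in the nascent fit) and DESeq2 1.42.0 as an alternative, in R 4.3.3. The share was tested as T>C against other reads with library as a block. Calls used Benjamini-Hochberg adjusted p under 0.05 over all genes. The scripts were tested on simulated data. Exact permutation of 2 against 2 libraries cannot go below a two-sided p of 0.333 and was not used. Replicates differed by more than sampling noise (chi-square per degree of freedom 15.1 to 23.7), so none was counted as a duplicate. From each related list up to 3 called genes with the smallest p are named per comparison, and HSF1 always. The members and lists were chosen with earlier results of these data known. SRPIN340 with THZ531 was not analysed here. Some genes of the prostate marker list are not reported here.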

Additional observations from a re-analysis of the deposited data

How the results depend on the processing

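With 2 libraries in each group, and the same 2 controls in every comparison, most values near the threshold depended on the processing. In nascent RNA, the threshold of the methods (unadjusted p under 0.05, log2 change of 1 or more in size) gave 1 member each with SRPIN340, Endovion and THZ531. In total RNA that rule gave 2 members with SRPIN340 and 2 with Endovion, leaving out the low-count filter gave 1 and 3, and with Endovion DESeq2 gave 3, the plain sum of overlapping intervals 1 and the groups compared alone 1. Those called with Endovion were BAG3 under each of the last 4 settings, HSPA8 and HSPB1 also with DESeq2, and DNAJB1 and HSPB1 also without the filter. Of these, BAG3 and HSPA8 were higher and DNAJB1 and HSPB1 lower. The member called with SRPIN340 without the filter was DNAJB1, which was lower. With THZ531, HSPA8 was called in total RNA by DESeq2 (adjusted p = 0.0090), with the plain sum (0.0437) and with the replicate block, and with the combination its call was lost with no low-count filter (0.0879) and with the groups compared alone (0.15). For the share with the combination, no low-count filter gave 1. Leaving out 1 library gave 0 to 1 nascent calls with the combination (1 without control replicate 2), 0 to 1 share calls with it (1 without control replicate 1), and in total RNA 0 to 3 with Endovion (3 without control replicate 1 or THZ531 replicate 2), 0 to 2 with SRPIN340 (2 without control replicate 1), 2 to 4 with THZ531 (4 without control replicate 1) and 1 to 4 with the combination (1 without either of its own replicates). The cause of these shifts was not tested.

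The main fit did not pair libraries by replicate number, since only 2 pairs exist per comparison. The difference of replicate 1 from replicate 2 was correlated over genes between groups. Its r ran from −0.12 to 0.13 in nascent RNA and from −0.46 to 0.54 in total RNA. In total RNA it was 0.54 for THZ531 and SRPIN340, but −0.46 for control and THZ531 and −0.36 for control and SRPIN340. With the replicate block the members called stayed 0 in nascent RNA and in the share, and were 0, 0, 3 and 3 in total RNA with SRPIN340, Endovion, THZ531 and the combination, HSPA8 being added with THZ531 (adjusted p = 0.0281). With the control numbers exchanged, a crossed pairing chosen after seeing the data, they were 0, 0, 2 and 3. Over all genes that crossed pairing called 1071, 2462, 5044 and 4890 in total RNA, against 288, 1678, 4509 and 4257 in the main fit. Whether a batch underlies this was not tested.

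Of 64 changes of single genes, 28 turned sign without some library, 20 of them nascent, and all 28 were at most 0.27 in size on the log2 scale. Their ranges over the fits without 1 library follow. With SRPIN340 the nascent changes ran from −0.65 to 0.34 for DNAJB1, −0.12 to 0.32 for HSP90AA1, −0.14 to 0.22 for HSPB1, −0.097 to 0.26 for HSPE1, −0.11 to 0.27 for HSPD1 and −0.83 to 0.38 for BAG3. With Endovion the nascent changes ran from −0.59 to 0.40 for DNAJB1, −0.097 to 0.35 for HSP90AA1, −0.0054 to 0.22 for HSPE1, −0.14 to 0.25 for HSPD1 and −0.12 to 0.62 for BAG3. With THZ531 the nascent changes ran from −1.14 to 0.30 for DNAJB1, −0.058 to 0.22 for HSPB1, −0.33 to 0.11 for HSPE1 and −0.18 to 0.20 for HSPD1. With the combination the nascent changes ran from −0.13 to 0.080 for HSPH1, −0.59 to 0.40 for DNAJB1, −0.00089 to 0.21 for HSPB1, −0.42 to 0.45 for HSPE1 and −0.029 to 0.36 for HSPD1. With SRPIN340 the total changes ran from −0.17 to 0.13 for HSP90AA1 and −0.084 to 0.50 for HSPE1. With Endovion the total changes ran from −0.12 to 0.17 for HSP90AA1, −0.14 to 0.45 for HSPE1 and −0.014 to 0.20 for HSPD1. With THZ531 the total changes ran from −0.073 to 0.21 for HSPB1 and −0.083 to 0.50 for HSPE1. With the combination the total changes ran from −0.25 to 0.031 for HSPB1. Scaling by all reads turned nascent HSPD1 to −0.042 with Endovion and 0.012 with THZ531, and comparing groups alone turned total HSP90AA1 with Endovion to −0.0026. The other alternatives left 335 of 352 single-gene values on their side of the threshold and in their direction. HSPA1A and HSPA1B summed still had too few reads for a value.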
